A study of Argopecten irradians irradians x Argopecten purpuratus with 6 samples.

Results

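Scallop adductor muscle, the muscle that closes the shell, is normally white, and the genes described here are those that were expressed in muscle of one colour and near silent in the other. The genes were chosen by their deposited values, which had to be under 0.1 FPKM in all 3 libraries of one colour and to reach 1 FPKM in all 3 libraries of the other. FPKM is an expression level in fragments that allows for gene length and library depth. Of 29249 genes, 42 met the rule, 19 expressed in orange muscle (0.065%) and 23 expressed in white muscle (0.0786%). Since the FPKM values themselves chose these genes, the values are given as a description and without a test.

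Orange adductor muscles of QN Orange scallops were set against white adductor muscles of Bohai Red scallops, all from animals 1 year old. Both strains were bred from hybrids between a subspecies of bay scallop (Argopecten irradians irradians) and A. purpuratus, the Peruvian scallop. In the labels the strain is Bohai Red for every sample, and the strain of the orange muscles is taken from the methods of the study. Each colour had 3 libraries. Every library was made from 3 muscles pooled together, and no value belongs to a single animal. Because all orange muscles came from one strain and all white muscles from the other, colour and strain cannot be told apart. The genome used for alignment was that of the bay scallop alone.

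Orange tissue in scallops is known to carry carotenoids, pigments that animals take up with their food and that are carried through the body bound to lipoproteins. Melanin, made inside pigment cells from tyrosine, is the other pigment commonly studied in molluscs. In bulk RNA such as this, fewer cells of a type cannot be told apart from less RNA per cell. The identifiers of these genes, a contig and a model number such as Contig313.24 or a running number such as Novel00060, were not paired with gene names or functions in the sources used here. The genes are therefore described by their levels, their reads and their places on the contigs, and the tissue was not checked against marker genes.

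The 6 libraries were of similar depth, with between 27564653 and 36093567 reads on genes, as recovered from the spacing of the FPKM values. Correlations across genes of log2(FPKM + 0.5) were 0.937 to 0.958 between orange libraries, 0.924 to 0.940 between white libraries and 0.886 to 0.921 between an orange and a white library. One read on a gene of 1 kilobase was worth between 0.0277 and 0.0363 FPKM. In a gene shorter than about 277 to 363 bases, depending on the library, a single read already exceeds 0.1 FPKM, so that such a gene could be included only with no read at all in the library concerned.

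The 19 genes expressed in orange muscle had mean levels in orange muscle between 1.25 and 7.72 FPKM, with a median of 2.40 FPKM. The median over all 11455 genes with at least 1 FPKM in every orange library was 5.54 FPKM. By mean level in orange muscle they ranked between 4413 and 12114 among all genes. Together they held 6770 reads in the orange libraries, against 48 reads in the white libraries. Even the highest of them was thus a gene of middling level.

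The gene with the highest level was Contig313.24, a model of at least 2022 bases. It had 3.83, 13.5 and 5.82 FPKM in orange replicates 1, 2 and 3, against 0 FPKM in all 3 white libraries. These values rest on 215, 853 and 425 reads in orange muscle, and not 1 read fell on the gene in white muscle. In all 6 libraries the reads on genes outnumbered the clean read pairs of the study, so the mates of a pair were taken as counted apart, and a count of 0 over the 3 libraries of a colour as allowing 6 reads. With 6 reads in the white libraries, expression was at least 225.0-fold higher in orange muscle. Orange replicate 2 was 3.53 times as high as orange replicate 1, so that the pools of one colour differed widely in a gene that was silent in every pool of the other.

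Contig80.279 had 7.22, 4.49 and 2.78 FPKM in the orange libraries and 0 FPKM in the white libraries. Contig224.50 had 4.71, 6.11 and 3.59 FPKM in the orange libraries and likewise 0 FPKM in the white libraries. Both were again without a read in white muscle, at least 26.5-fold and at least 148-fold higher in orange muscle. The second bound is the larger because Contig224.50 held 979 reads in orange muscle, against 176 for the short model Contig80.279. The joined model Contig224.75_Contig224.76 on the same contig had 2.92, 4.35 and 1.89 FPKM in orange muscle, against 0, 0 and 0.0222 FPKM in white muscle. Its single read in white replicate 3 gave a ratio of 397 with a 95% counting interval from 70.9 to 15714. These intervals take reads as independent and are too narrow where both mates of a fragment were counted. Intervals and bounds rest on the values that chose the genes. They describe counting error only and leave out the spread between pools.

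Contig141.6 had 5.44, 1.77 and 1.30 FPKM in the orange libraries and 0 FPKM in the white libraries. Its highest orange library was 4.19 times its lowest, the widest spread among the 19 genes. Novel02334 had 4.33, 1.64 and 2.43 FPKM in the orange libraries, against 0, 0.0980 and 0 FPKM in the white libraries. The value in white replicate 2 came from 2 reads on a model of 740 bases, and it lay just inside the limit of 0.1 FPKM. Contig1776.5 had 3.67, 2.66 and 1.63 FPKM in orange muscle, against 0.0854, 0.0361 and 0 FPKM in white muscle. With 490 reads in orange and 7 in white muscle, its ratio was 63.3 (95% interval 30.5 to 158).

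Contig1027.1 had 1.68, 4.48 and 1.11 FPKM in the orange libraries and 0 FPKM in the white libraries, from a recovered count of at least 34 reads in all. Its recovered length, at least 150 bases, is the smallest of the 19 models. Its bound of at least 5.12-fold is the lowest among those with no read in white muscle. Contig1224.1 had 3.39, 2.33 and 1.52 FPKM in orange muscle, against 0, 0.0297 and 0 FPKM in white muscle. Novel01006 had 1.13, 2.56 and 3.51 FPKM in orange muscle, against 0.0404, 0.0570 and 0.0134 FPKM in white muscle. Novel01006 carried reads in every white library, 8 in all, so that it was low in white muscle and not absent. The ratios of these last genes were 245 and 68.6.

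The remaining 9 genes had means between 1.25 and 2.31 FPKM in orange muscle. Of the 19 genes, 8 had no read in the 3 white libraries, 7 had 1 to 3 reads and 4 had more than 3. The largest number was 18 reads, in Contig135.12, which had 1.77, 1.68 and 1.63 FPKM in orange muscle, against 0.0654, 0.0830 and 0.0910 FPKM in white muscle. Among the 11 genes with reads in white muscle it had the smallest ratio, 21.1 (95% interval 13.2 to 36.0), and among all 19 the smallest spread, with the highest orange library only 1.09 times the lowest. The bounds of the 8 genes without reads ran from 5.12 to 225.0, and the ratios of the other 11 ran from 21.1 to 397 with a median of 68.6.

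**Figure D1:**
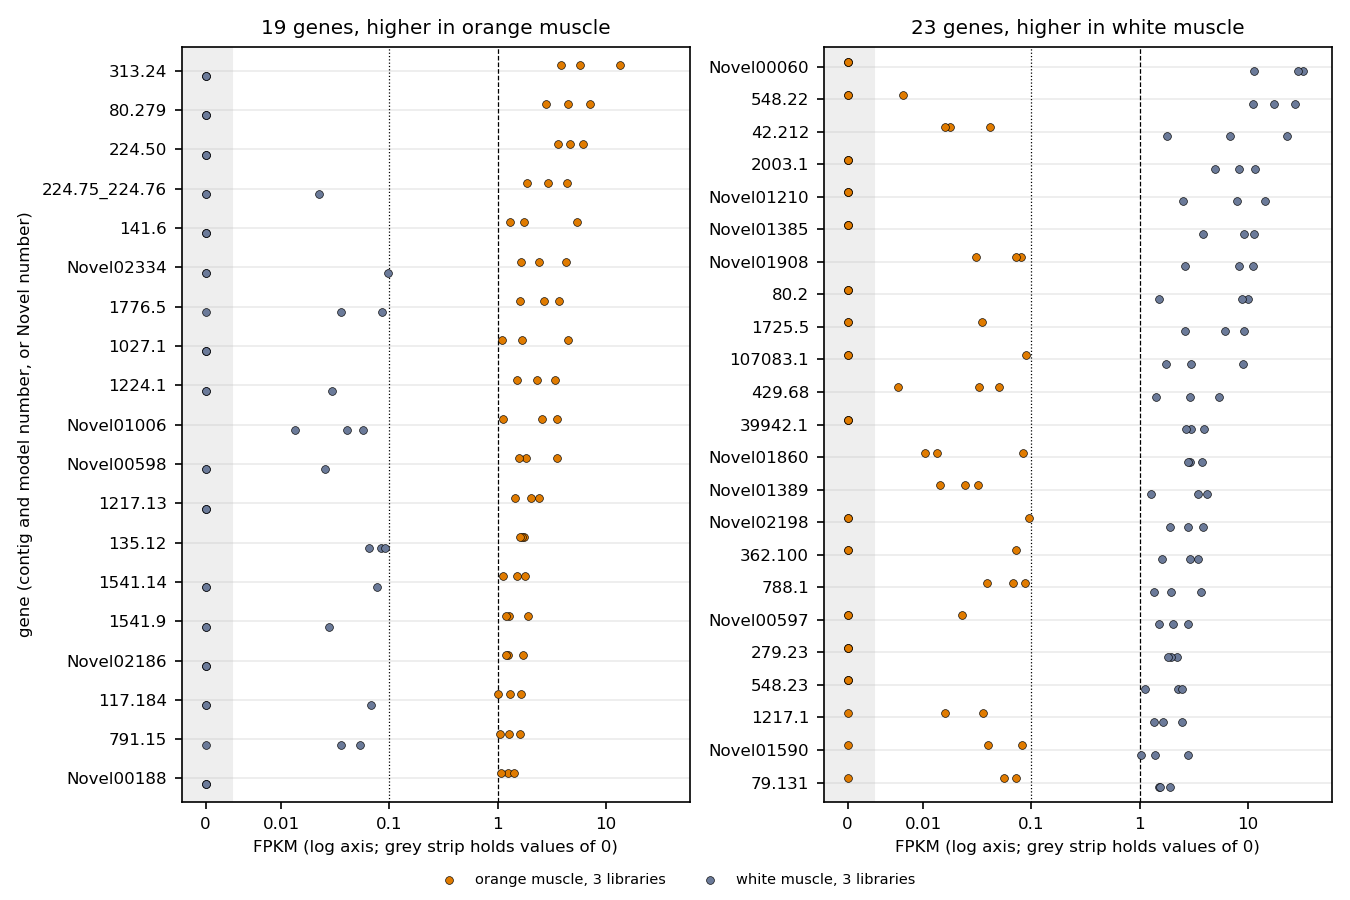
FPKM of the 42 genes in each of the 6 libraries, on a log axis with values of 0 in a grey strip, for the 19 genes expressed in orange muscle (left) and the 23 expressed in white muscle (right). Points are single libraries, orange muscle above white muscle within a row, and the dotted and dashed lines mark the limits of 0.1 and 1 FPKM. No gene has a point between the lines, because the rule leaves none there, and 8 genes in each panel have no read in the near silent colour.

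The 23 genes expressed in white muscle had mean levels in white muscle between 1.65 and 24.4 FPKM, with a median of 3.19 FPKM against 5.96 FPKM over all 11564 genes with at least 1 FPKM in every white library. By mean level in white muscle they ranked between 1679 and 11581. They held 85 reads in the orange libraries, against 19375 reads in the white libraries. A single gene, Contig548.22, supplied 8001 of the reads in white muscle.

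Novel00060 was the highest of them. It had 0 FPKM in all 3 orange libraries, against 32.2, 11.5 and 29.4 FPKM in white replicates 1, 2 and 3. Its 931 reads in white muscle and 0 in orange muscle put it at least 172-fold lower in orange muscle. Contig548.22 had 0, 0.00645 and 0 FPKM in the orange libraries, against 17.3, 11.2 and 27.3 FPKM in the white libraries. With 1 read in orange and 8001 reads in white muscle on a model of 4960 bases, it showed the largest ratio of the genes with reads in both colours, 8848 white over orange, with a 95% counting interval from 1588 to 349540. The interval is wide because it turns on a single read.

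Contig42.212 had 0.0178, 0.0159 and 0.0412 FPKM in the orange libraries, against 23.2, 6.78 and 1.81 FPKM in the white libraries. The white pools differed 12.8-fold, the widest spread of all 42 genes, with 1367 reads in white replicate 1 and 107 in white replicate 3. Orange muscle held 5 reads of this gene, with at least 1 in every library. Contig2003.1, the only model on its contig, had 0 FPKM in the orange libraries and 8.34, 4.98 and 11.8 FPKM in the white libraries. It is a model of at least 255 bases with 185 reads in white muscle, which allow a bound of at least 34.1-fold lower in orange muscle.

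Novel01210 had 0 FPKM in the orange libraries, against 7.96, 14.4 and 2.54 FPKM in the white libraries. Novel01385 had 0 FPKM in the orange libraries, against 11.4, 3.88 and 9.32 FPKM in the white libraries. The pools of white muscle did not rank alike in these genes, white replicate 2 being the highest for Novel01210 and the lowest for Novel01385. Novel01908 had 0.0806, 0.0717 and 0.0310 FPKM in orange muscle, against 8.20, 2.64 and 11.1 FPKM in white muscle. Contig80.2 had 0 FPKM in orange muscle, against 10.01, 1.51 and 8.82 FPKM in white muscle. Its recovered length, at least 120 bases, is the smallest of the 42 models, and its value in white replicate 2 stood for at least 5 reads.

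Contig1725.5 had 0, 0 and 0.0348 FPKM in orange muscle, against 6.16, 2.64 and 9.21 FPKM in white muscle. Contig107083.1, alone on its contig, had 0, 0 and 0.0897 FPKM in orange muscle, against 2.999, 1.76 and 8.95 FPKM in white muscle. Each had 1 read in orange muscle, in orange replicate 3, the most deeply sequenced library. White replicate 2 was the lowest white library for both.

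The remaining 13 genes had means between 1.65 and 3.26 FPKM in white muscle. Of the 23 genes, 8 had no read in the orange libraries, 7 had 1 to 3 reads and 8 had more than 3. The bounds of the 8 genes without reads ran from 13.1 to 172, and the ratios of the other 15, white over orange, ran from 36.9 to 8848 with a median of 115. Reads in the near silent colour were spread over libraries and did not come from one pool. In orange replicates 1, 2 and 3, 8, 10 and 12 of the 23 genes had reads, 23, 24 and 38 reads in all. In white replicates 1, 2 and 3, 5, 5 and 7 of the 19 genes expressed in orange muscle had reads, 17, 15 and 16 reads in all.

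Within the colour that expressed them, the 42 genes had a higher median spread between pools than all genes of that colour. For the 19 genes expressed in orange muscle the median coefficient of variation over the 3 orange libraries was 38.6%, against 20.5% over all genes with at least 1 FPKM in every orange library. For the 23 genes expressed in white muscle it was 46.2% over the 3 white libraries, against 21.7% over all such genes. The highest library was at least 3 times the lowest in 4 of the 19 genes (21.1%, against 4.59% of all) and in 8 of the 23 genes (34.8%, against 6.89% of all). The 42 genes were lower expressed than these others, with fewer reads behind each value, and the part of level and depth in the wider spread was not tested.

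The low library was often the same one. Orange replicate 3 was the lowest orange library in 15 of the 19 genes (78.9%), as it was for 55.8% of all genes expressed in orange muscle. White replicate 2 was the lowest white library in 15 of the 23 genes (65.2%), against 56.5% of all genes expressed in white muscle. The shares moved with the scaling. After each library was divided by its median ratio to the others, orange replicate 3 was lowest in 11 genes (57.9%, against 35.0% of all), and white replicate 2 still in 15 (65.2%, against 33.4% of all).

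**Figure D2:**
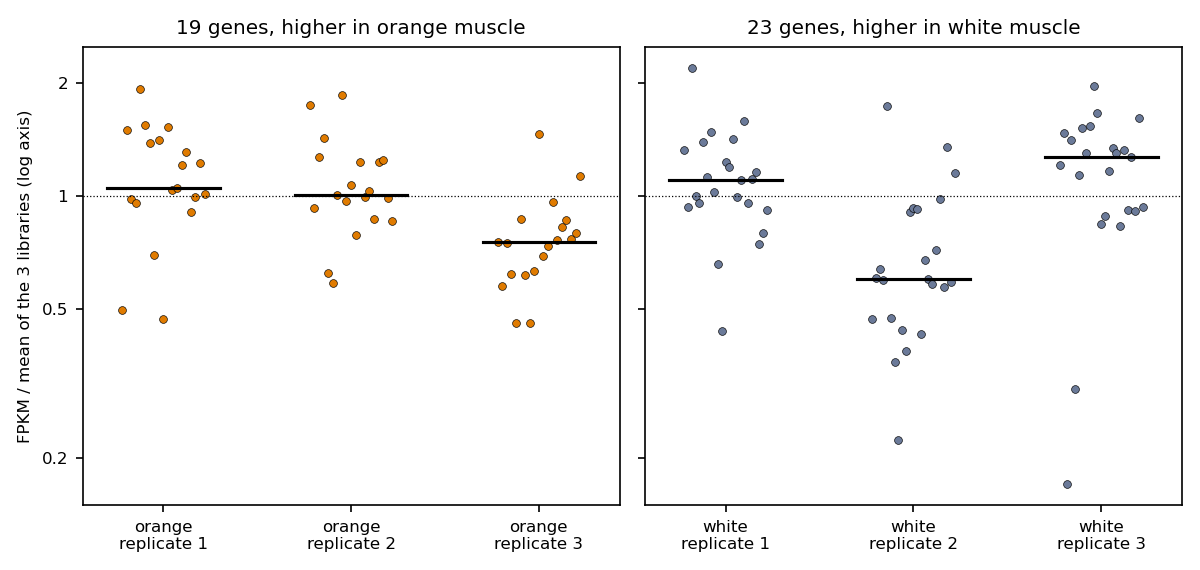
FPKM of each gene divided by its mean over the 3 libraries of the colour that expressed it, on a log axis, for the 19 genes in the orange libraries (left) and the 23 genes in the white libraries (right). Each point is a gene, the horizontal bars are medians over genes, and the dotted line marks the mean of a gene. Orange replicate 3 and white replicate 2 sit lowest on these deposited values. They were also lowest for 55.8% and 56.5% of all genes expressed in orange and in white muscle. The points of white muscle reach further from the line, and the median coefficients of variation were 38.6% and 46.2%.

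A gene can be expressed in 1 pool and near silent in another of the same colour. Between an orange and a white library, 363 to 496 genes were under 0.1 FPKM in 1 library and at least 1 FPKM in the other, over 9 such pairs. The same held for 146 to 227 genes between orange libraries, and for 242 to 330 genes between white libraries. By the rule, all 42 genes count in every pair between colours and none in a pair of 1 colour. They made up 8.47% to 11.6% of the genes found between colours. Without them, 321 to 454 genes remained between colours, and the lowest of these pairs lay below the highest pair of white libraries. Over all 3 libraries of a colour, 400 genes were near silent in 1 orange pool and expressed in another, and 584 genes in the white pools.

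**Figure D3:**
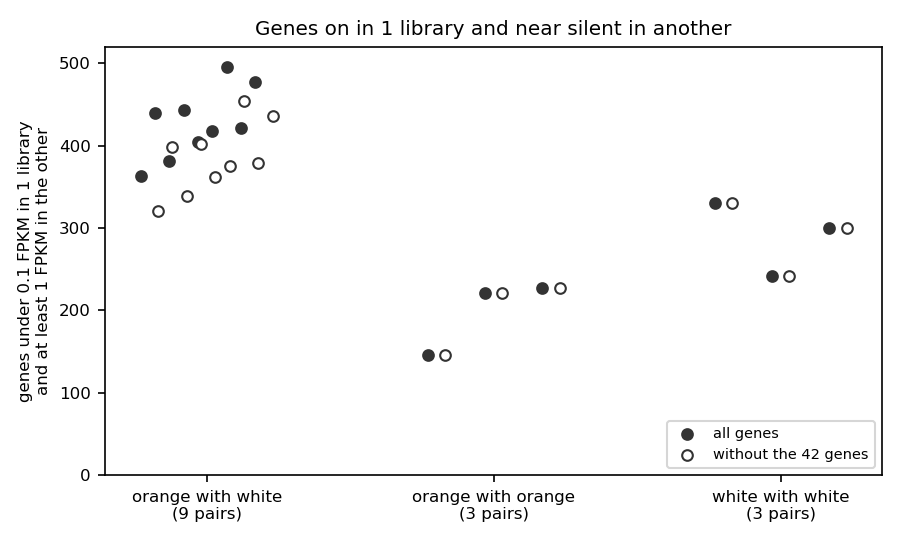
Number of genes under 0.1 FPKM in 1 library and at least 1 FPKM in the other, for the 9 pairs of an orange with a white library, the 3 pairs of orange libraries and the 3 pairs of white libraries. Filled points count all genes and open points leave out the 42 genes. Pairs between colours reach 496 genes and pairs of white libraries reach 330. Leaving out the 42 genes lowers only the pairs between colours, because the rule places all of them there.

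By identifier, the 42 genes held more models without a contig, those named in the manner of Novel00060, than other expressed genes did. Of the 19 genes expressed in orange muscle, 5 were of this kind (26.3%), against 8.98% of all genes with at least 1 FPKM in every orange library. Of the 23 genes expressed in white muscle, 9 were of this kind (39.1%), against 9.68% of all genes with at least 1 FPKM in every white library. The genes also had short recovered lengths. The recovered length, the smallest at which all values of a gene are whole reads, had a median of 1223 bases for the 19 genes, against 2014 bases for all expressed genes in orange muscle, and of 824 bases for the 23 genes, against 2026 bases in white muscle. This length is a lower limit, and a gene with fewer libraries above 0 leaves more room for one that is too small. The part of this in the shorter medians was not tested. Short models reach 0 FPKM with fewer missing reads, and the part of length in the choice of these genes was not tested.

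The identifiers without a contig are numbered in sequence, although what the order stands for is not stated. Novel00598 and Novel00597 have adjacent numbers and opposite patterns. Novel00598 had 3.51, 1.82 and 1.59 FPKM in orange muscle, against 0, 0 and 0.0257 FPKM in white muscle. Novel00597 had 0, 0 and 0.0227 FPKM in orange muscle, against 2.03, 1.52 and 2.81 FPKM in white muscle. Each gene had 2 reads in the near silent colour, and 563 and 447 reads in the colour that expressed it. Novel01385 and Novel01389, a gap of 4 numbers, were both expressed in white muscle. Novel01389 had 0.0319, 0.0142 and 0.0246 FPKM in orange muscle, against 4.18, 1.27 and 3.44 FPKM in white muscle.

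The other 28 genes lie on 23 contigs, and 5 of these contigs hold a pair of the 42 genes. The genes next to them on the contigs were not used by the rule and could be tested. They were taken from a limma fit on log2(FPKM + 0.5) to the 15341 genes that averaged 0.5 FPKM or more. Fold changes are orange over white and, because of the added 0.5, come out too small for low genes. A gene was called when its Benjamini-Hochberg adjusted p was below 0.05 and its log2 fold change beyond 1 in either direction. The fit called 219 genes (1.43%), 100 higher in orange muscle (0.652%) and 119 lower in orange muscle (0.776%). The median log2 fold change of all genes tested was -0.12, and -0.004 after scaling by median ratios, so that small negative values are within the scaling.

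In that fit 18 of the 19 genes expressed in orange muscle were called, with a median log2 fold change of 2.38, against the background of 0.652%. Likewise 21 of the 23 genes expressed in white muscle were called, with a median of -2.77, against 0.776%. The rule used the same contrast, so nothing is read from these counts. The 3 genes that were not called were Contig1027.1, Contig42.212 and Novel01590, for which the pools of the expressing colour differed by 2.74- to 12.8-fold. Some called genes also differed widely, among them Contig80.2 with 6.62-fold, and the part of spread in the calls was not tested.

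Of the 28 genes, 25 had another model on their contig, and 44 models that were not among the 42 genes stood directly before or after them. Of these neighbours, 9 (20.5%) had at least 1 FPKM in all 6 libraries, against 36.4% of all genes, and 8 (18.2%) were under 0.1 FPKM in all 6, against 26.3% of all genes. In the near silent colour itself, 11 of the 44 neighbours had at least 1 FPKM in all 3 libraries. A silent gene could thus stand beside a gene that was expressed in the same muscle. Over all 29249 genes the share was larger, with 11455 genes in orange and 11564 in white muscle.

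Of 20 neighbours that could be tested, 2 were called (10%), against the background of 1.43%. An unadjusted p under 0.05 was found for 6 neighbours (30%), against 17.97% of all genes tested. Of the 20, 11 differed in the same direction as the gene they stood next to and 9 in the opposite direction.

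Contig224.77, next to the joined model expressed in orange muscle, was the first of them. It had 3.86, 2.09 and 2.27 FPKM in orange muscle, against 0.283, 0.0428 and 0.402 FPKM in white muscle. All orange libraries lay above all white libraries, and the log2 fold change was 2.12 (SE 0.32, limma adjusted p 0.0307). The adjusted p ran from 0.0257 to 0.103 over 13 alternative settings, and the gene was called in 6 of them. The call was lost without any 1 of the orange libraries, without white replicate 1 or 3, with no filter and with limma voom on the recovered reads.

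Contig1725.6, next to Contig1725.5, was the other. It had 0, 0 and 0.148 FPKM in orange muscle, against 15.05, 4.27 and 11.5 FPKM in white muscle. It missed the rule only through 1 read in orange replicate 3, and its log2 fold change was -4.14 (SE 0.43, limma adjusted p 0.0115). The adjusted p ran from 0.00211 to 0.121 over 14 alternatives, and the gene was called in 11. The call was lost without orange replicate 2, with the filter at a mean of 5 FPKM and with limma voom on the recovered reads. Together the pair Contig1725.5 and Contig1725.6 held 2 reads in orange and 583 reads in white muscle.

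Because most neighbours were too low for that fit, they were also compared by reads, with limits chosen after the values had been seen. A gene was taken as present in 1 colour when it had at least 10 reads over the 3 libraries of that colour and at most 3 over the other. Of the 26 neighbours of genes expressed in orange muscle, 5 were present in orange muscle (19.2%) and 0 in white muscle. Of the 18 neighbours of genes expressed in white muscle, 3 were present in white muscle (16.7%) and 0 in orange muscle. Over all 29207 other genes the shares were 2.22% for orange and 2.19% for white muscle, 4.41% in either direction. All 8 such neighbours thus had the direction of the gene they stood next to. They were Contig313.23 with 108 reads in orange and 0 in white muscle, Contig1217.14 with 146 and 0, Contig1541.10 with 39 and 0, Contig1541.13 with 49 and 0, Contig1776.4 with 15 and 0, Contig1725.6 with 1 and 167, Contig548.24 with 0 and 151, and Contig79.134 with 0 and 11. Contig1541.10 and Contig1541.13 share a contig and were counted separately, although they may not be independent. No test was made of this count, since the limits were set with the values in view. The reads of these 8 neighbours were not always even over the pools. Contig313.23 had 0.0801, 0.114 and 1.17 FPKM in orange replicates 1, 2 and 3. Contig79.134 had 0.325, 0 and 0.0718 FPKM in white replicates 1, 2 and 3. All but Contig79.134 had reads in every library of the expressing colour. Whether neighbouring models belong to 1 transcript was not tested.

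Following the contigs outward from the 28 genes gave 26 runs of consecutive models with more than 3 reads in the expressing colour and at most 3 in the other, the member itself included whatever its reads. Of these runs, 18 held a single model and 8 held at least 2. Counted by single models, 21 of the 28 genes met both limits themselves, and 8 of these (38.1%) stood next to a model that also met them, against 433 of 2468 other models (17.5%). Genes of the same run were counted separately here and are not independent. Contig1541.9 and Contig1541.14 share a run, and so do Contig548.22 and Contig548.23. Contig548.22 counts only through Contig548.23, itself among the 42 genes. The limits were set with the values in view, and the 42 genes had more reads than the rule of these runs asks for. The part of these points in the shares was not tested. The longest run of the whole table, 8 models, was one of those around the genes described here.

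That run lies on Contig1541. Its models 7 to 14 together had 177, 162 and 143 reads in orange replicates 1, 2 and 3, against 1 read in each white library. The 2 genes that met the rule are its models 9 and 14. Contig1541.9 had 1.91, 1.26 and 1.20 FPKM in orange muscle, against 0, 0 and 0.0275 FPKM in white muscle. Contig1541.14 had 1.78, 1.51 and 1.12 FPKM in orange muscle, against 0.0773, 0 and 0 FPKM in white muscle. The other 6 models of the run were lower, with means between 0.193 and 0.619 FPKM in orange muscle, and 5 of them had no read in white muscle. The run ended sharply, as models 15 to 18 had 19923 reads in orange and 17480 reads in white muscle.

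On Contig548 the pattern was in the other direction. Models 22 to 24 had 0, 1 and 0 reads in the orange libraries, against 2582, 1564 and 4083 reads in the white libraries. Contig548.23 had 0 FPKM in orange muscle, against 2.26, 1.11 and 2.47 FPKM in white muscle. Contig548.24 had 0 FPKM in orange muscle, against 1.43, 0.587 and 2.41 FPKM in white muscle, and it fell outside the rule through white replicate 2. Models 25 and 26 had 15064 reads in orange and 12506 reads in white muscle. On the other side, Contig548.21 averaged 1.658 ± 0.259 FPKM in orange and 1.499 ± 0.290 FPKM in white muscle (SD, n = 3 each).

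Beyond it stood Contig548.19 and Contig548.20, which were also called. Contig548.19 averaged 0.938 ± 0.750 FPKM in orange and 8.93 ± 2.18 FPKM in white muscle (SD, n = 3 each), a log2 fold change of -2.82 (SE 0.40, limma adjusted p 0.0251). Contig548.20 averaged 0.798 ± 0.604 FPKM in orange and 7.12 ± 1.13 FPKM in white muscle (SD, n = 3 each), a log2 fold change of -2.66 (SE 0.36, limma adjusted p 0.0238). Leaving out 1 library ended the call of Contig548.19 for each of the orange libraries and for white replicates 1 and 3, and that of Contig548.20 for orange replicate 2 and white replicates 1 and 3. Both calls were also lost with no filter and with limma voom.

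**Figure D4:**
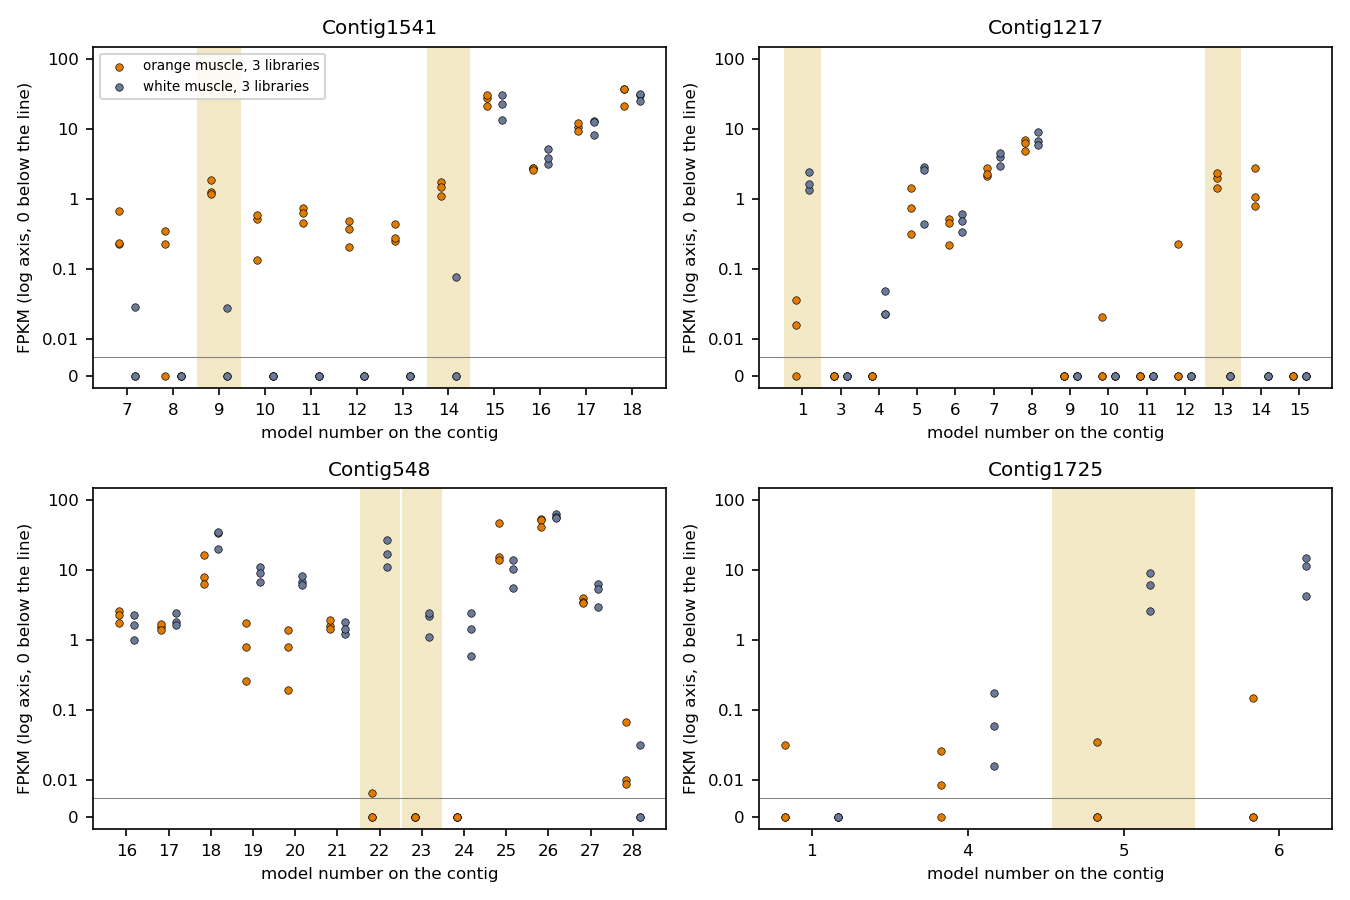
FPKM of consecutive gene models on Contig1541, Contig1217, Contig548 and Contig1725 in the 3 orange libraries (left point of each pair) and the 3 white libraries (right point), on a log axis with values of 0 below the line. Shaded models met the rule, model numbers that the table does not list are skipped, and Contig548 is shown around its shaded models only. On Contig1541 the 8 models 7 to 14 carry orange points with white points at or near 0, while models 15 to 18 carry both.

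Contig1217 held 1 gene of each direction. Contig1217.13 had 2.03, 2.40 and 1.44 FPKM in orange muscle and 0 FPKM in white muscle. With its neighbours, models 12 to 14, it held 316 reads in orange and 0 reads in white muscle. Contig1217.1, at the start of the contig, had 0.0360, 0.0160 and 0 FPKM in orange muscle, against 1.36, 2.45 and 1.66 FPKM in white muscle. Between them, Contig1217.7 and Contig1217.8 averaged 2.42 and 6.13 FPKM in orange muscle, against 3.88 and 7.35 FPKM in white muscle, and neither was called.

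Contig80 also held both directions, Contig80.279 expressed in orange muscle and Contig80.2 in white muscle. They stand far apart, with 222 models between them, of which 102 had at least 1 FPKM in all 6 libraries and 1 of 138 tested, Contig80.188, was called (limma adjusted p 0.0460). This call held in 3 of 13 alternatives and was lost without any 1 of the 6 libraries, with the replicate block, with a pseudocount of 0.1, with no filter and with limma voom on the recovered reads. Contig224 held Contig224.50 and the joined model Contig224.75_Contig224.76, both expressed in orange muscle, with 23 models between them. Directly beside them, Contig224.49, Contig224.51 and Contig224.74 averaged 3.62, 2.83 and 6.87 FPKM in orange muscle, against 2.87, 1.84 and 5.30 FPKM in white muscle. Elsewhere on it, Contig224.41 averaged 12.1 ± 6.9 FPKM in orange and 0.828 ± 0.437 FPKM in white muscle (SD, n = 3 each), with a log2 fold change of 3.17 (SE 0.42, limma adjusted p 0.0226). It lost its call without orange replicate 2, without white replicate 1, with no filter, with the filter at a mean of 5 FPKM and with limma voom. Contig224.42 averaged 11.3 ± 5.4 FPKM in orange and 1.45 ± 0.94 FPKM in white muscle (SD, n = 3 each), with a log2 fold change of 2.61 (SE 0.45, limma adjusted p 0.0444), and it lost its call without any 1 of the 6 libraries, with a pseudocount of 0.1, with either other filter, without the trend and with limma voom.

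The limits of the rule cut through a continuous range. Novel02334, with a highest white value of 0.0980 FPKM, was the last gene inside the silent limit among those expressed in orange muscle, and Contig1166.12, at 0.101 FPKM in white replicate 2, was the first outside. Both of these values stood for 2 reads. Contig117.184, with 1.01 FPKM in orange replicate 3, was the last inside the expression limit, and Contig466.34, with 0.865 FPKM in orange replicate 2, the first outside. Among those expressed in white muscle, Novel02198 at 0.0943 FPKM in orange replicate 2 was the last inside the silent limit and Contig631.13 at 0.116 FPKM in orange replicate 1 the first outside. At the expression limit, Novel01590 had 1.03 FPKM in white replicate 2, and Contig1666.1, with no read in orange muscle, missed it with 0.990 FPKM in white replicate 1. That gene held 67, 103 and 72 reads in white replicates 1, 2 and 3, so that its exclusion turned on a small shortfall in 1 library.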

How the data were processed

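RNA-seq was analysed from 3 orange and 3 white adductor muscle libraries, grouped by the muscle colour in the labels. The authors selected mRNA with poly-T beads, sequenced paired ends, aligned the reads with HISAT2 2.0.4 to an unpublished bay scallop genome, counted them with HTSeq 0.9.1 and deposited FPKM values. Not given in the sources used here are the annotation, the strandedness and the counting mode, so reads shared by near-identical or overlapping genes could have been divided in ways that were not checked.

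Library totals, lengths and reads were recovered from the spacing of the deposited FPKM values. For each gene the smallest length from 100 to 60000 bases was taken at which all values were whole reads within a relative tolerance of 2e-09. This succeeded for all 24393 genes above 0, and for 0 of 500 genes whose values were moved at random by up to 0.1%. Recovered reads summed to 99.6% to 99.7% of the totals. Because the smallest length was taken, the recovered reads of a gene are lower limits, as its length is. Intervals and limits in reads carry this with them. Ratios of reads have exact conditional binomial intervals (95%), and genes without reads are bounded by 6 reads over the 3 libraries of a colour, 3 for fragments with both mates counted. In all 6 libraries the reads on genes exceeded the clean read pairs in the study's supplement, so reads were not 1 for each fragment throughout, provided that none was counted repeatedly. Intervals and bounds cover counting error only, and intervals are too narrow where both mates were counted.

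limma 3.58.1 in R 4.3.3 was fitted with a mean-variance trend and no covariates to log2(FPKM + 0.5) of all genes that averaged 0.5 FPKM or more. The count test of the study was not run on FPKM. The pools of a colour came from animals of a single strain, and p-values measure only the spread between these pools. Other steps used pandas 2.3.3, scipy 1.17.1 and numpy 2.4.6 under Python 3.11.15. Scripts for the recovery and the fit were tested on simulated data.

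The genes and the lists were chosen with earlier results of these data known. Genes are named when they are among the 10 highest of a direction, share a contig with another of the 42 genes, are a called neighbour, or lie next to a limit of the rule. Contig135.12, Novel00597, Novel00598, Novel01389, the uncalled genes, other models of the contigs shown and the neighbours compared by reads were named after their values had been seen. Alternatives were other limits, scaling by median ratios or to a common sum per library (TPM), pseudocounts of 0.1 and 1, no filter or one at a mean of 5 FPKM, no trend, a replicate block, more neighbours and each library left out. A limit of 3 reads and limma voom on recovered reads were added after seeing the data. Gene names, functions and sequences were not used here.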

Additional observations from a re-analysis of the deposited data

How the results depend on the processing

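The number of genes depends on the limits. Of the 19 genes expressed in orange muscle, 12 stayed under a silent limit of 0.05 FPKM, and 8 were at exactly 0. The 23 genes expressed in white muscle became 14 and 8 under the same limits. Raising the expression limit to 2 and 5 FPKM left 3 and 0 genes in orange and 9 and 2 genes in white muscle, and lowering it to 0.5 FPKM gave 36 genes in white muscle. Leaving out 1 library gave 21 to 27 genes in orange and 25 to 40 genes in white muscle. All 19 and all 23 had to be among them, since the rule then holds 1 condition less and can only add genes. The count for white muscle reached 40 without white replicate 2 and 37 without white replicate 3. Scaling by median ratios kept 18 of the 19 and 22 of the 23 genes, and rescaling to TPM, which raises or lowers every value of a library by the same factor, kept 13 and 15. At most 3 reads in the silent colour kept 15 and 15.

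The calls by limma rest on small groups. Without a filter 66 genes were called in all, 26 of the 42 genes and 1 neighbour. With a mean of at least 5 FPKM 30 genes were called, 2 of the 3 of the 42 genes still tested and 0 of 5 neighbours. With 1 library left out, 21 to 263 genes were called, 7 to 32 of the 42 genes and 0 to 3 neighbours. The lowest counts of all genes, of the 42 genes and of neighbours came without orange replicate 2. limma voom on the recovered reads, added after seeing the data, called 17 genes, 1 of the 42 genes and 0 neighbours. The cause of these differences was not tested. Of up to 5 neighbours on each side, 6 of 95 tested were called. Scaling by median ratios gave 252 calls, 132 higher and 120 lower in orange muscle. No alternative reversed the direction of a neighbour or contig gene that was tested by name. These genes were named after a call or one-sided reads in the same data, so nothing is read from their unchanged direction.

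With the replicate number as a block, 187 genes, 31 of the 42 genes and 2 neighbours were called. Deviations from the colour means of libraries with the same number correlated at 0.23, 0.151 and -0.189 across genes, and the numbers were not taken to pair them.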
